A study of Mus musculus with 12 samples.

Results

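Activins and inhibins are dimers built from a small set of chains. The genes described here encode those chains, follistatin and follistatin-like proteins, the receptors that receive activin, and a coreceptor. The members were 10 genes chosen by name. The subunit genes were Inha, Inhba and Inhbb, and the follistatin and follistatin-like genes were Fst, Fstl1 and Fstl3. The receptor genes were Acvr1b, Acvr2a and Acvr2b, and the coreceptor gene was Tgfbr3. A gene was represented by the probe set with the highest mean over 12 arrays, out of 19938 genes with a symbol of their own, and each of the 10 had 1 such probe set. The values are log2 expression levels from Affymetrix arrays, so that a difference of 1 is a 2-fold difference.

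The cells were mouse cumulus cells, which descend from granulosa cells and enclose the oocyte in the follicle, kept in culture for 8 h within their complexes. The donors were 129SV females 21 to 26 days old that had received 5 IU of equine chorionic gonadotropin (eCG) 44 h earlier, and complexes were collected in medium with cilostamide, an inhibitor of cyclic nucleotide breakdown, at 1 µM. The 3 groups had 4 arrays each: FSH at 50 mIU/ml with EGF at 10 ng/ml in 293H control medium (FSH/EGF), GDF9 at 20 ng/ml, and 293H control medium alone at 0.125% by volume (control). For GDF9 cultures the labels mention no such medium, so GDF9 and a lack of that medium cannot be told apart. FSH is a pituitary gonadotropin, EGF stands in culture for the growth factors that reach the complex at ovulation, and GDF9 is a growth factor secreted by the oocyte. Oocytes were in the complexes of all 3 groups during culture and were taken off before RNA was made, and each array held RNA of 2 of 8 biological replicates.

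Inhibin joins the alpha chain, made by Inha, to a beta chain, made by Inhba (beta A) or Inhbb (beta B), while activin joins a pair of beta chains and needs no alpha chain. Activin binds a type II receptor, ACVR2A or ACVR2B, which then engages the type I receptor ACVR1B and leads to phosphorylation of SMAD2 and SMAD3. Inhibin, held by the coreceptor betaglycan from Tgfbr3, occupies type II receptors without that signal, and follistatin from Fst binds activin and keeps it from its receptors. Granulosa cells are the main ovarian source of inhibin, which is known for lowering the release of FSH from the pituitary.

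The labelled cell type was checked against markers. All 7 granulosa and cumulus markers measured stood above the median of all genes in controls. So did, among markers of other cells, Acta2, Krt8 and Col1a1 with control means of 8.71, 7.80 and 7.06. Of 17 oocyte markers, 2 did so, counted over the controls without array 4, which held more oocyte RNA. Since levels of different probe sets are not comparable, this is a rough check. With FSH/EGF 6 of these 7 were lower, and their mean on each array lay between 6.82 and 7.001 on FSH/EGF arrays, between 8.60 and 8.67 on GDF9 arrays and between 8.58 and 8.89 on control arrays. Of the markers of other cells, 2 of 7 endothelial genes (Cdh5 and Tek), 2 of 5 surface epithelium genes (Krt8 and Krt18), 1 of 5 leukocyte genes (Cd68) and 1 of 6 theca and stroma genes were higher with FSH/EGF, while 3 theca and stroma genes, 1 of 17 oocyte genes (Npm2) and both red blood cell genes were lower. Of all genes 21.9% were higher and 14.9% lower. The mean of the endothelial list ran from 5.30 to 5.32 on FSH/EGF arrays and from 4.79 to 4.94 on control arrays, and that of the surface epithelium list from 6.96 to 7.10 on FSH/EGF arrays and from 5.82 to 6.22 on control arrays. These means rest on few genes, Cdh5 at 3.18 in the first list and Krt8 at 3.02 and Krt18 at 2.72 in the second. The median differences of the lists were -0.01 and -0.10, and the other 5 endothelial and 3 epithelial genes did not pass. The part of these shifts in the results below was not tested. In RNA of pooled cells, fewer cells of a type and less RNA per cell cannot be told apart. A pair of control arrays stood apart. Control array 4 held more oocyte RNA. Over 17 oocyte markers, the median difference of array 4 from the mean of the other controls was 0.94 on the log2 scale. Control array 1 had a weight of 0.27 where the other arrays had 0.49 to 2.04.

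The beta chain genes are the pair that the results turn on, so the 250 bases before the annotated start of each are shown, from RefSeq with build GRCm38.p6. The window of Inhba is chr13:16011601-16011850 on the plus strand, and the start it precedes is not the most upstream one of the gene's annotated range. The window of Inhbb is chr1:119422249-119422498 on the minus strand. Capitals mark each CG dinucleotide.
Inhba: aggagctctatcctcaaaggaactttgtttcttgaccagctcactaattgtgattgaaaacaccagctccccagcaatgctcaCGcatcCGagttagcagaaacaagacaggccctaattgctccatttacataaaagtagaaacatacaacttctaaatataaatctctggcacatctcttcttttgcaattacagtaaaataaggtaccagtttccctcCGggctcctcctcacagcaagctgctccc
Inhbb: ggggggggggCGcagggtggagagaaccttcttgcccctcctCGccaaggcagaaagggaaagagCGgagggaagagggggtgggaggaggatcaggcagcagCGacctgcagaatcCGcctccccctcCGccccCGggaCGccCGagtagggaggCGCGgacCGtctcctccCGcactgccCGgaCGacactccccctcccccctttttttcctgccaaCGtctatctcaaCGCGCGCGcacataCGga

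These windows differ in base composition. The Inhba window has 3 CG dinucleotides and 43.2% G and C, and the Inhbb window has 21 and 68.0%. Among 32851 promoter windows of that length the median was 6 CG dinucleotides and 52.4% G and C, with 20.1% of windows at or below the GC content of Inhba and 88.4% at or below that of Inhbb. This count was chosen after the sequences were seen. Neither window held, on either strand, the letters TGACGTCA of the cyclic AMP response element (1.55% of all windows hold them), its short form TGACG, which lies within the longer one (17.8%), TGANTCA of AP-1 (6.75%), CAGAC of SMAD proteins (42.2%) or AAGGTCA of SF-1 (4.08%). Of the other members, Inha, Fstl1, Fstl3, Acvr1b, Acvr2a and Acvr2b had a window, and CAGAC occurred once in those of Inha, Acvr2a and Acvr2b and at 2 places in that of Fstl3.

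The comparison of FSH/EGF with control asked what these genes do when complexes receive FSH and EGF. Of the 10 genes, 3 were higher and 4 were lower. Inhba, Fstl1 and Fstl3 were the higher ones, and Inha, Inhbb, Acvr1b and Tgfbr3 the lower ones. These 7 were past an adjusted p of 0.05 in limma, against 36.8% of all 19938 genes, 21.9% higher and 14.9% lower. The arrays of the groups did not overlap for the same 7 members, as for 41.9% of all genes. The median difference of the 10 was -0.23, against -0.07 over all genes.

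The genes of the beta chains went in opposite directions with FSH/EGF. Inhba stood at 10.50, 10.91, 10.70 and 11.22 on FSH/EGF arrays, against 9.47, 9.83, 9.94 and 10.00 on control arrays. Every FSH/EGF array was above every control array. Inhba was higher by 1.02 ± 0.15 (log2 difference ± SE, limma adjusted p = 0.000218), a 2.03-fold rise with an interval of 0.70 to 1.35 on the log2 scale at 95%. Inhbb stood at 9.20, 8.92, 8.99 and 8.94 on FSH/EGF arrays, against 9.90, 9.74, 10.09 and 9.89 on control arrays. Here every FSH/EGF array was below every control array. Inhbb was at -0.89 ± 0.11 (limma adjusted p = 6.05e-05), which is 0.538 of the control level.

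Inha, whose alpha chain is found in inhibin but not in activin, was among the brightest genes, with 99.4% of all probe sets at or below its mean. It stood at 11.42, 11.45, 11.45 and 11.14 on FSH/EGF arrays, against 11.74, 11.67, 11.64 and 11.75 on control arrays. All FSH/EGF arrays were below all controls, with array 4 the lowest. The difference of -0.34 ± 0.09 (limma adjusted p = 0.0116) came to 0.792 of the control level. This call was lost when array medians were made equal (-0.26, limma adjusted p = 0.0729). It was also lost when control arrays 1 and 4 were left out (-0.29, limma adjusted p = 0.0844). Whether so bright a signal as that of Inha was near saturation was not tested.

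**Figure D1:**
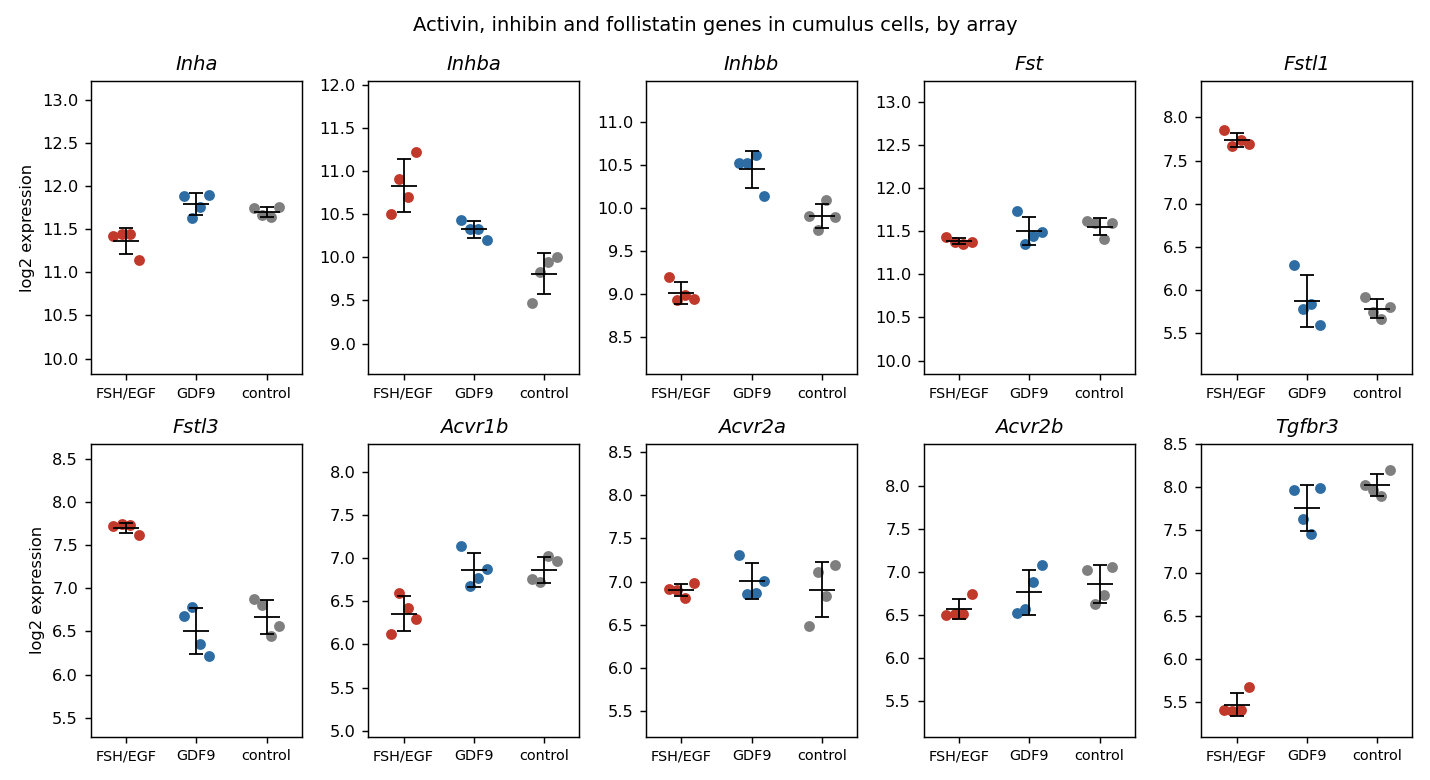
Log2 expression (vertical axis, each panel spanning the same number of log2 units) of the 10 genes on each of the 12 arrays, with FSH/EGF, GDF9 and control from left to right. Points are arrays, the long bar is the group mean and the whiskers are the SD (n = 4). Inhba is highest with FSH/EGF, Inhbb is lowest there, and the 4 FSH/EGF arrays of Tgfbr3 lie at 5.40 to 5.68, below all others.

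To set the beta chains against each other, the difference Inhba minus Inhbb was taken on each array, which cancels any shift common to the array. Levels of different probe sets are not comparable, so only changes of this difference between groups are read. It was 1.30, 1.99, 1.71 and 2.29 on FSH/EGF arrays, -0.07, -0.18, -0.28 and 0.07 on GDF9 arrays, and -0.43, 0.09, -0.15 and 0.10 on control arrays. The FSH/EGF arrays lay apart from the rest, and the GDF9 and control arrays overlapped. The difference averaged 1.82 ± 0.42 with FSH/EGF, -0.12 ± 0.15 with GDF9 and -0.10 ± 0.25 in controls (SD, n = 4 each). The shift from control was 1.92 with FSH/EGF, a 3.78-fold change of the ratio (two-sided exact permutation p = 0.0286, the smallest that 4 against 4 arrays allow; 0.0429 adjusted over the 3 comparisons). The interval from inverting that test ran from 1.20 to 2.72 at 97.1%. Inhba and Inhbb had each already separated fully from control, in opposite directions. The p of their difference could therefore not come out otherwise, and it adds no support to those separations. The members were also chosen with earlier results of these data known.

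With GDF9 the shift of the Inhba minus Inhbb difference from control was -0.02 (two-sided exact permutation p = 0.857, adjusted 0.857), with an interval of -0.39 to 0.50. Between FSH/EGF and GDF9 the shift was 1.94, or 3.83-fold (exact permutation p = 0.0286, adjusted 0.0429), with an interval of 1.23 to 2.57. Both genes separated fully between these groups as well, in opposite directions, so that this p was also fixed beforehand. Leaving out any array brings the exact test to p = 0.0571, the smallest that 4 against 3 arrays can give, while the shift from control with FSH/EGF stayed between 1.76 and 2.09.

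**Figure D2:**
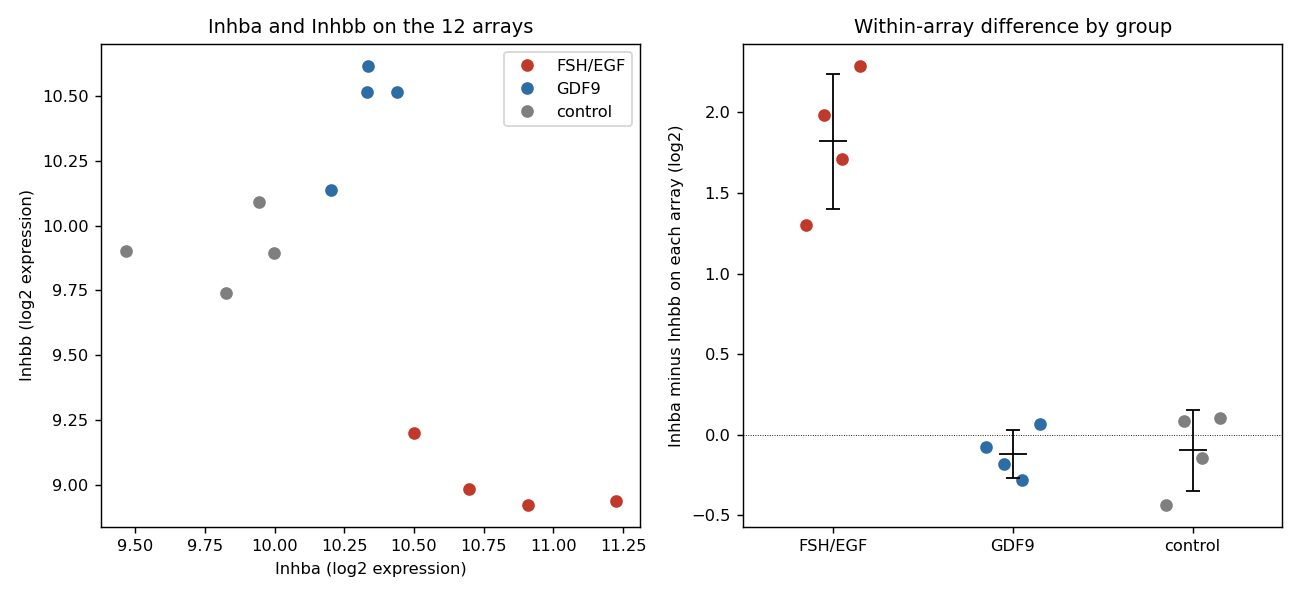
Left, Inhbb against Inhba (both log2 expression) on the 12 arrays, coloured by group. Right, Inhba minus Inhbb on each array (log2) by group, with the mean and SD (n = 4). FSH/EGF arrays lie to the lower right with differences of 1.30 to 2.29, while GDF9 arrays lie up and to the right of controls with differences of -0.28 to 0.07, within the control range of -0.43 to 0.10.

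Among the follistatin and follistatin-like genes, Fst had a bright signal that stayed close in all groups, while Fstl1 and Fstl3 were higher with FSH/EGF. Fstl1, whose product is a secreted glycoprotein with a follistatin domain, stood at 7.86, 7.67, 7.74 and 7.69 on FSH/EGF arrays, against 5.91, 5.75, 5.66 and 5.81 on control arrays. The groups were far apart, with a gap wider than the spread within either. Fstl1 was higher by 1.96 ± 0.13 (limma adjusted p = 1.50e-07), or 3.88-fold. Fstl3, whose product binds activin as follistatin does, stood at 7.73, 7.74, 7.73 and 7.62 on FSH/EGF arrays, against 6.87, 6.80, 6.45 and 6.57 on control arrays. All FSH/EGF arrays were above all controls, and their spread (SD 0.06) was below that of controls (SD 0.20). Fstl3 was higher by 1.03 ± 0.13 (limma adjusted p = 5.70e-05), or 2.05-fold.

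Fst stood at 11.43, 11.38, 11.35 and 11.37 on FSH/EGF arrays, against 11.62, 11.60, 11.41 and 11.59 on control arrays. The groups overlapped through control array 3. The difference was -0.17 ± 0.09 (limma adjusted p = 0.153), with an interval of -0.36 to 0.01, so that a rise like that of Fstl3 lay outside the interval. For Fst 99.3% of probe sets were at or below its mean, and whether so bright a signal was near saturation was not tested.

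Of the receptor genes, Tgfbr3 and Acvr1b were lower with FSH/EGF and the type II receptor genes were not past the threshold. Tgfbr3 stood at 5.42, 5.40, 5.41 and 5.68 on FSH/EGF arrays, against 8.03, 7.96, 7.89 and 8.20 on control arrays. The FSH/EGF arrays lay near the median of whole arrays, which ran from 5.41 to 5.53. How far above background these Tgfbr3 signals were was not tested. Tgfbr3 fell by 2.55 ± 0.12 on the log2 scale (limma adjusted p = 1.26e-08), to 0.171 of the control level. By size this was the 168th of 19938 genes, and the farthest move of the 10 members.

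Acvr1b, the type I activin receptor gene, stood at 6.12, 6.60, 6.42 and 6.30 on FSH/EGF arrays, against 6.76, 6.72, 7.02 and 6.97 on control arrays. All FSH/EGF arrays were below all controls, with a narrow gap. The difference was -0.51 ± 0.12 (limma adjusted p = 0.00766), or 0.702 of the control level. Acvr2a stood at 6.92, 6.90, 6.81 and 6.98 on FSH/EGF arrays, against 6.49, 7.11, 6.83 and 7.19 on control arrays. The groups overlapped, the means were both 6.91, and the interval of the difference was -0.32 to 0.32. Acvr2b stood at 6.50, 6.52, 6.51 and 6.74 on FSH/EGF arrays, against 7.03, 6.62, 6.73 and 7.06 on control arrays. These groups overlapped as well, and the difference was -0.29 ± 0.14 (limma adjusted p = 0.125).

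The changes with FSH/EGF were set against the arrays with more oocyte RNA. The mean of the oocyte list was 5.15 on FSH/EGF array 3, against 4.82 to 4.89 on the other FSH/EGF arrays, and 5.92 on control array 4, against 4.95 to 5.11 on the other controls. Control array 4 was the highest control for Inha, Inhba, Acvr2a, Acvr2b and Tgfbr3, by 0.07 to 0.38 over the mean of the other controls, and was within their range for the other members. Without it Inhba was at 1.09, Inhbb at -0.90, Tgfbr3 at -2.49, Acvr1b at -0.48, Fstl1 at 1.96, Fstl3 at 1.00 and Inha at -0.32, and all 7 calls held. Without both control array 4 and FSH/EGF array 3 the same 7 genes passed, with Inhba at 1.13, Inhbb at -0.89, Tgfbr3 at -2.46 and Inha at -0.35.

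GDF9 minus control asked what the oocyte factor does to the same genes. No member was past the threshold, as was true of all 19938 genes (0% called by limma). At an unadjusted p under 0.05 limma gave 2 of the 10 members, Inhba and Inhbb, against 4.95% of all genes. The arrays of the groups did not overlap for the same 2, against 2.32% of all genes. The median difference of the 10 was 0.04, against -0.02 over all genes, and 5 of the 10 differences were positive.

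Inhba stood at 10.44, 10.33, 10.33 and 10.20 on GDF9 arrays, against 9.47, 9.83, 9.94 and 10.00 on control arrays. All GDF9 arrays were above all controls. The difference was 0.52 ± 0.15, or 1.43-fold, with an unadjusted p of 0.00469 and an adjusted p of 0.971 in limma, and an interval of 0.19 to 0.84. Inhbb stood at 10.51, 10.51, 10.62 and 10.14 on GDF9 arrays, against 9.90, 9.74, 10.09 and 9.89 on control arrays. Again all GDF9 arrays were above all controls, with array 4 nearest to them. The difference was 0.54 ± 0.11, or 1.45-fold, with an unadjusted p of 0.000415 and an adjusted p of 0.971 in limma, and an interval of 0.29 to 0.78. By size Inhbb was 22nd and Inhba 31st of 19938 genes in this comparison, and neither passed the test over all probe sets. Oocyte markers that were high on control array 4 also ranked near the top, with Bmp15 6th, Zp3 8th and Gdf9 28th. Under other settings Inhba ranged from 0.40, without control array 1, to 0.58, without control array 4. Inhbb ranged from 0.45 to 0.64.

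The other 8 members lay between -0.26 and 0.10 with GDF9, all with overlapping groups. Tgfbr3 was the farthest, at 7.97, 7.62, 7.45 and 7.99 on GDF9 arrays against 8.03, 7.96, 7.89 and 8.20 on control arrays, a difference of -0.26 ± 0.12 with an interval of -0.53 to 0.01. Inha stood at 11.88, 11.63, 11.75 and 11.90 on GDF9 arrays, 0.09 ± 0.09 from control. Its interval was -0.10 to 0.28. A difference between the change of Inha and that of Inhba or Inhbb was not tested. Whether the bright Inha signal was near saturation was not tested. Fst was at -0.05, Fstl1 at 0.09, Fstl3 at -0.17, Acvr2a at 0.10 and Acvr2b at -0.10. No gene at all was past the threshold with GDF9, so the 0 of 7 granulosa and cumulus markers past it is no further result. At an unadjusted p under 0.05 limma gave 0 of these 7, against 4.95% of all genes. The mean of the oocyte list ran from 4.80 to 4.99 on GDF9 arrays and from 4.95 to 5.92 on control arrays.

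**Figure D3:**
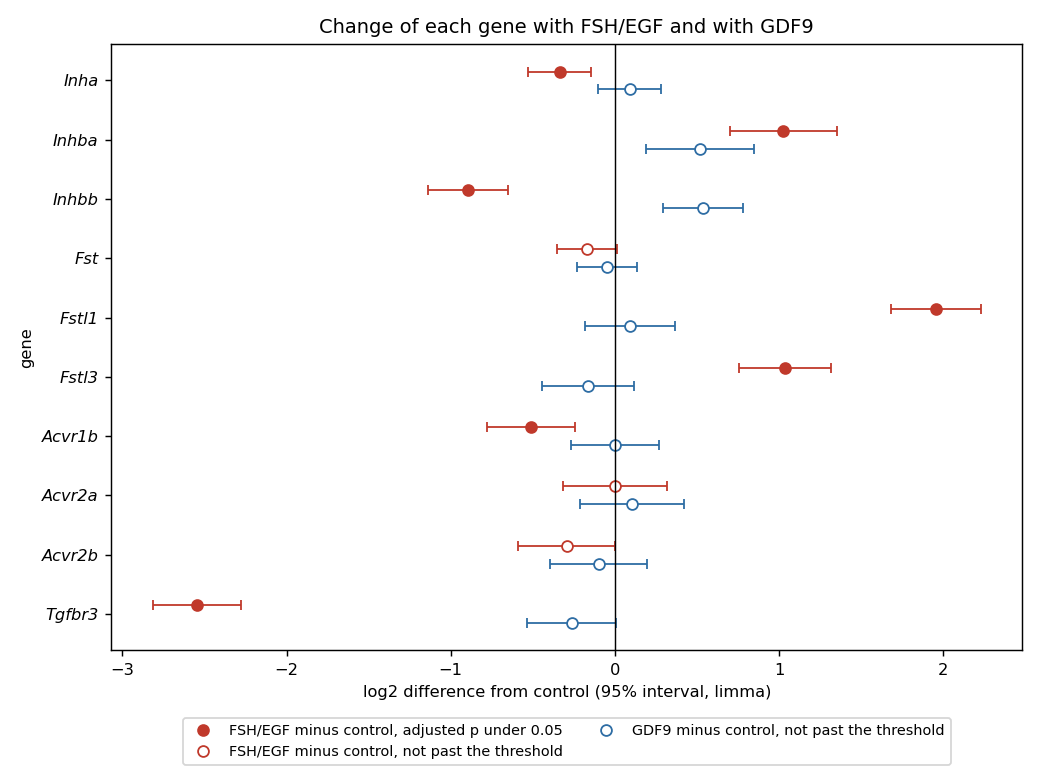
Log2 difference from control (horizontal axis, with limma 95% intervals) of the 10 genes with FSH/EGF (red) and with GDF9 (blue), filled where the adjusted p was under 0.05. Inhbb is at -0.89 with FSH/EGF and 0.54 with GDF9, Inhba at 1.02 and 0.52, and Tgfbr3 at -2.55 and -0.26, with no GDF9 point filled.

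Both comparisons use the same 4 control arrays, so the treatments were also compared directly. In FSH/EGF minus GDF9, 3 of the 10 members were higher and 4 lower, against 29.1% of all genes past the threshold, 18.6% higher and 10.5% lower. Inhbb was at 9.20, 8.92, 8.99 and 8.94 on FSH/EGF arrays and 10.51, 10.51, 10.62 and 10.14 on GDF9 arrays. The groups did not overlap, and Inhbb fell by 1.43 ± 0.11 on the log2 scale (limma adjusted p = 9.90e-07), to 0.370 of the GDF9 level. Inhba was 0.51 ± 0.15 higher with FSH/EGF (limma adjusted p = 0.0280), its lowest FSH/EGF array at 10.50 and its highest GDF9 array at 10.44. That call was lost without GDF9 array 2, 3 or 4 and without FSH/EGF array 2 or 4, with differences of 0.38 to 0.51 and adjusted p of 0.0571 to 0.0773.

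In the same comparison Inha was at -0.43 ± 0.09 (limma adjusted p = 0.00305). Fstl1 was at 1.87 ± 0.13 and Fstl3 at 1.20 ± 0.13 (adjusted p of 2.59e-07 and 1.70e-05), Tgfbr3 at -2.28 ± 0.12 (3.46e-08) and Acvr1b at -0.51 ± 0.12 (0.00899). Fst at -0.12, Acvr2a at -0.10 and Acvr2b at -0.20 did not pass. Ranked by group mean, Inhba ran FSH/EGF, GDF9, control and Inhbb ran GDF9, control, FSH/EGF, with no overlap between neighbours in either order. For Fstl1, Fstl3, Acvr1b, Tgfbr3 and Inha only the FSH/EGF group lay apart, and GDF9 and control overlapped. For Fst, Acvr2a and Acvr2b all neighbouring groups overlapped. Of all 19938 genes, 6715 did not overlap between FSH/EGF and GDF9. The share without overlap was 41.9% between FSH/EGF and control and 2.32% between GDF9 and control.

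Other genes of the activin pathway were read from a list of 29, of which 27 were measured. With FSH/EGF 8 were higher and 2 lower, 10 of 27 against the 36.8% of all genes, and their median of -0.02 was close to that of all genes. All 3 convertase genes, whose enzymes cut precursor proteins such as those of the TGF-beta family, were higher. Pcsk5 ranged from 9.77 to 10.33 on FSH/EGF arrays, against 7.05 to 7.50 on control arrays, a difference of 2.66 ± 0.13 (limma adjusted p = 1.48e-08). Pcsk6 ranged from 8.13 to 8.31 on FSH/EGF arrays, against 5.92 to 6.32 on control arrays, a difference of 2.21 ± 0.10 (5.91e-09). Furin ranged from 10.63 to 10.85 on FSH/EGF arrays, against 8.82 to 9.36 on control arrays, a difference of 1.74 ± 0.11 (1.66e-07). All 3 were also higher with FSH/EGF than with GDF9, and with GDF9 they lay between -0.20 and -0.01 from control.

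Of 12 genes of intracellular signalling, 4 were higher and 0 lower with FSH/EGF, against 21.9% and 14.9% of all genes. Smad3, one of the transducers used by activin, was at 1.40 ± 0.12 (limma adjusted p = 2.83e-06), and Smad2, the other, at 0.38 ± 0.11 (0.0257). Skil, a corepressor that binds SMAD proteins, was at 0.99 ± 0.10 (6.24e-06), and Dab2, an endocytic adaptor, at 0.45 ± 0.11 (0.0103). Smad4, their common partner, was at -0.12 and did not pass. Among 10 other receptors and modulators, Acvr1, a type I receptor of the same family, was at 1.03 ± 0.12 (3.59e-05). Tdgf1, whose product Cripto is a coreceptor, ranged from 4.81 to 5.39 on FSH/EGF arrays, against 6.09 to 6.47 on control arrays, a difference of -1.21 ± 0.17 (0.000136). Its FSH/EGF signals lay below the medians of those arrays, 5.41 to 5.44, and how far above background they were was not tested. Wfikkn2, which encodes a secreted binding protein of related ligands, was at -0.37 ± 0.12 (0.0358) with overlapping arrays. The further beta chain genes Inhbc (-0.02) and Inhbe (-0.23) did not pass. Smad2, Smad4, Wfikkn2, Inhbc and Inhbe were named after their values were seen. Against GDF9, FSH/EGF had 6 of the 27 higher and 1 lower, where 29.1% of all genes were past the threshold. GDF9 against control had 0 past it, as over all genes. In limma 2 of the 27 had an unadjusted p under 0.05, against 4.95% of all genes.

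**Figure D4:**
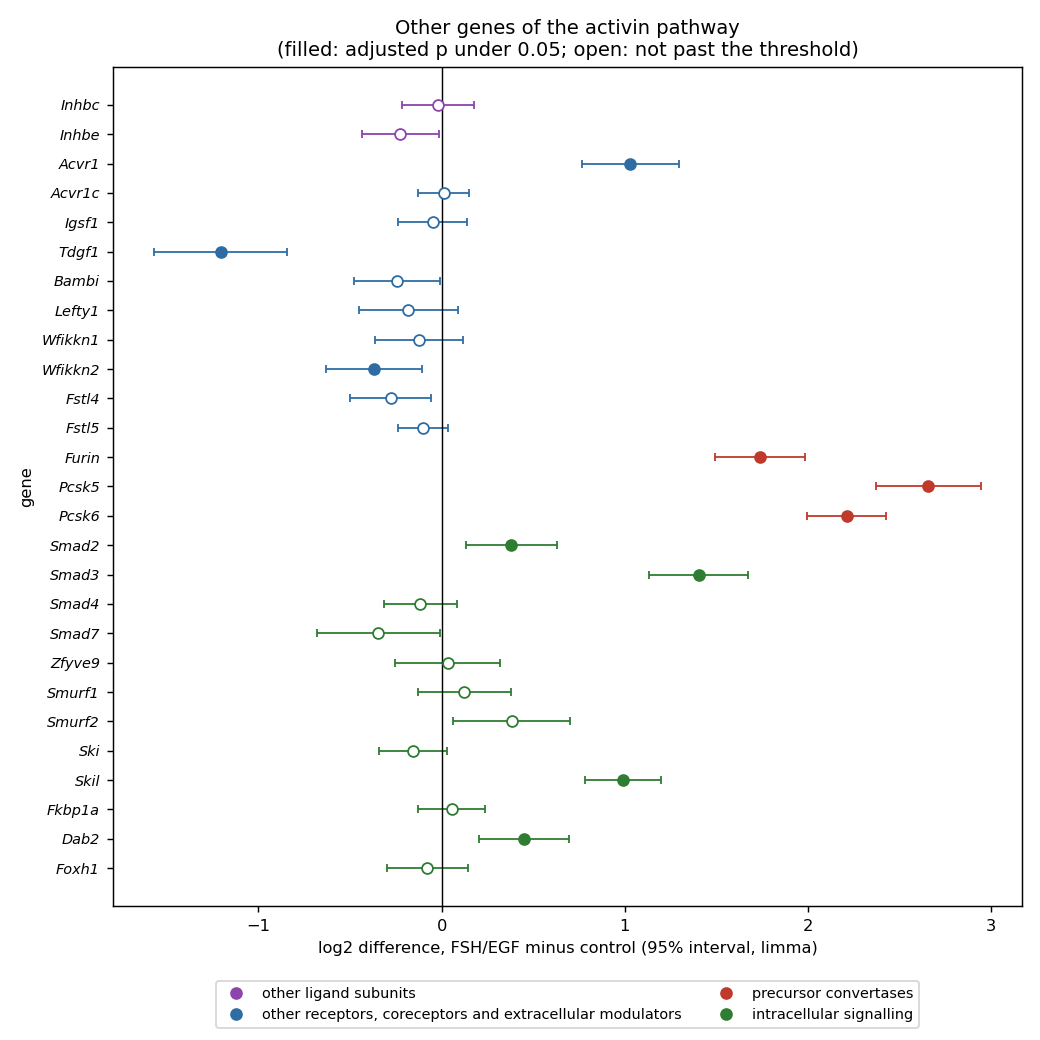
Log2 difference, FSH/EGF minus control (horizontal axis, with limma 95% intervals), of the 27 measured genes of the activin pathway list, coloured by role and filled where the adjusted p was under 0.05. The convertase genes Pcsk5, Pcsk6 and Furin lie farthest right at 2.66, 2.21 and 1.74, and Tdgf1 lies farthest left at -1.21.

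Of 7 transcription factor genes known to act on inhibin subunit genes in granulosa cells, 2 were higher and 3 lower with FSH/EGF, against 21.9% and 14.9% of all genes. Crem, which gives rise to repressors of cyclic AMP responses, ranged from 5.91 to 6.31 on FSH/EGF arrays, against 4.58 to 4.91 on control arrays, a difference of 1.34 ± 0.12 (limma adjusted p = 3.70e-06). Its control signals lay below the medians of those arrays, 5.47 to 5.53, and their distance from background was not tested either. Cebpb was at 1.32 ± 0.24 (0.000992). Esr2, estrogen receptor beta, was at -2.29 ± 0.15 (2.16e-07), Nr5a2, the nuclear receptor LRH-1, at -2.09 ± 0.10 (1.34e-08), and Nr5a1, which encodes SF-1 and was named after its value was seen, at -0.76 ± 0.11 (0.000255). Creb1 at 0.28 and Gata4 at 0.07, also named afterwards, did not pass. With GDF9 none of the 7 passed, as for all genes. In limma 1 had an unadjusted p under 0.05, against 4.95% of all genes.

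The genes with the closest profiles to the beta chain genes were sought over the 12 arrays, as a description. The measure was the mean absolute difference between log2 values after each gene's own mean was taken off. For Inhba, whose own mean absolute deviation was 0.36, the closest of 19937 genes were Xpo1, a nuclear export receptor gene, at 0.137, Hnrnph2, an RNA-binding protein gene, at 0.137, and E2f8, an E2F family factor gene, at 0.140. For Inhbb, whose own deviation was 0.52, they were Chn2, which encodes a GTPase-activating protein, at 0.111, Evc2, a ciliary protein gene, at 0.145, and Zmat1, a zinc finger gene, at 0.149. Since these genes were picked for closeness on the same arrays, their differences follow from that choice and are no further result. With FSH/EGF Xpo1 was at 0.98, Hnrnph2 at 0.97 and E2f8 at 0.87 from control, while Chn2 was at -0.97, Evc2 at -1.05 and Zmat1 at -1.06. With GDF9 they lay between 0.15 and 0.35 above control, below the 0.52 of Inhba and the 0.54 of Inhbb. None passed, as for all genes.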

How the data were processed

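Gene expression was measured on 12 Affymetrix arrays of mouse cumulus cells, 4 per group. The authors deposited 1 table of log2 values for 35399 probe sets, already normalized, from 2.92 to 14.29. Per the submitters' processing notes, the tools were GCOS, Partek and RMA, with no version or role, and the genome build is not given in the sources used here. The platform annotation gave 1 symbol for 21789 rows. Each of 19938 genes was taken at its probe set with the highest mean. limma 3.58.1 in R 4.3.3 was fitted over all rows and arrays with 1 mean per group and Benjamini-Hochberg adjustment over all rows, threshold 0.05. It was also run on simulated data with independent noise and equal array quality, which does not show how it behaves on these arrays. Each array held a pool of 2 biological replicates, so p-values measure the spread between pools, and precision is limited by how many arrays there are. The change of Inhba minus Inhbb was tested with exact permutations (scipy 1.17.1). Named genes were the members, up to 8 pathway genes and up to 4 regulators past the threshold by size, and 3 most alike genes each for Inhba and Inhbb. Members and lists were chosen with earlier results of these data known. Same-numbered arrays of different groups had correlations of deviations from -0.39 to 0.22. Whether the numbers mark a shared litter or day is not given by the labels, and these correlations cannot settle it. Alternatives were other moderation, sample sets, weights, filters, scaling and left-out arrays.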

Additional observations from a re-analysis of the deposited data

Results flagged for a closer look

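In 5 of 33 groups of 4 arrays tested, 1 array lay far from the other 3, where chance gives about 1 in 20. In 4 of these it was FSH/EGF array 4. Inha was at 11.14 there, against 11.42 to 11.45 on the other FSH/EGF arrays. Fstl3 was at 7.62, against 7.73 to 7.74. Acvr2b was at 6.74, against 6.50 to 6.52. Tgfbr3 was at 5.68, against 5.40 to 5.42. Over all 19938 genes, FSH/EGF array 4 lay apart in this way in 2.16%, and any FSH/EGF array in 5.21%. Among controls, Fst was at 11.41 on array 3, against 11.59 to 11.62 on the others.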

How the results depend on the processing

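Over 530 repeats of the 30 member comparisons under other settings, 504 kept direction and side of the threshold, 7 calls were lost and 19 values not past the threshold changed sign. The lost calls were Inha with FSH/EGF against control (-0.26 with equal array medians, -0.29 without control arrays 1 and 4) and Inhba in FSH/EGF minus GDF9 (5 left-out arrays, 0.38 to 0.51). The change of Inhba minus Inhbb kept its size while the exact permutation test lost its reach with fewer arrays. For FSH/EGF minus control it was 1.76 to 2.09 with 1 array left out (exact p = 0.0571), 1.85 without control arrays 1 and 4 (p = 0.133) and 2.02 without control array 4 and FSH/EGF array 3 (p = 0.1), an alternative chosen after seeing the data. For FSH/EGF minus GDF9 it was 1.78 to 2.11 with 1 array left out, and 1.98 without FSH/EGF array 3 (exact p = 0.0571). With the replicate number as a block, these changes were 1.92 and 1.94 (each exact permutation p = 0.125, the smallest that 4 pairs allow). The 7 calls of FSH/EGF against control remained with that block. The labels do not say that the number pairs arrays. A mean over probe sets gave no other value, since each member has 1. The signal over background is not given in the sources used here. Differences of genes with a dim group, Tgfbr3, Fstl1, Tdgf1 and Crem included, are therefore limited by an unknown background.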
